A study of Mus musculus with 4 samples.

Results

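The 40 genes described here encode matrix proteins of mouse embryonic fibroblasts (MEFs) other than collagens: adhesive glycoproteins, elastic fibre proteins and the enzymes that cross-link them, proteoglycans, laminins and nidogens. They were chosen by gene symbol from 55487 genes, and all 40 were found and passed the limit of 10 counts over all libraries. The MEFs came from wild-type C57BL/6J embryos, were at passage 2 per the labels (the study's text names another passage), and were cultured for 24 h with recombinant PEDF (pigment epithelium-derived factor, a secreted serpin) at 100 ng/mL or without it. There were 2 control and 2 PEDF libraries of polyadenylated RNA, 1 of each from experiment 1 and from experiment 2, and the embryos of the experiments were different. A library is named by its treatment and its experiment, so that control 1 and PEDF 1 share a MEF preparation. The labels give no further replicate of a treatment within an experiment, and they do not say how many embryos went into a preparation.

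Fibroblasts secrete most of the matrix around them. Fibronectin is laid down first and guides other matrix proteins, fibrillins form microfibrils on which elastin is deposited, and lysyl oxidases cross-link elastin and collagen. Small leucine-rich proteoglycans bind to collagen fibrils, while laminins, nidogens and perlecan build the basement membrane. Several of these proteins also hold growth factors, among them the latent form of TGF-beta.

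The libraries held 14722848 to 18144640 counts, and the 40 genes took 3.60% of them in control 1, 3.20% in PEDF 1, 4.02% in control 2 and 3.47% in PEDF 2. The share was lower with PEDF in both experiments, with relative changes of -11.03% and -13.65%. Per length, as the deposited TPM (transcripts per 1000000, which corrects for length), their sum was 15150 in control 1, 13630 in PEDF 1, 16829 in control 2 and 15233 in PEDF 2. The sum of TPM over 8 fibroblast markers, which Col1a1 dominates, went the same way (14437, 12990, 17314 and 14774 in that order). Within that list Thy1 (163, 181, 190 and 195 TPM) was higher with PEDF in both experiments, and Vim and Dpt were higher in experiment 2 only. The sum of 7 cartilage markers was also lower with PEDF in both experiments (1487, 1297, 1663 and 1419). Of it Col2a1 made up 1315, 1126, 1468 and 1250. Within the cartilage list Sox9 (37.8, 42.6, 35.3 and 36.5 TPM) and Col9a1 (45.4, 50.8, 38.3 and 41.8) were higher with PEDF in both experiments. The 7 macrophage markers summed to 208, 215, 115 and 171, lowest in control 2. The sum of the 7 muscle markers was higher with PEDF in both experiments (310, 340, 390 and 429). Within that list Ttn was lower with PEDF in both (0.464, 0.379, 0.705 and 0.559 TPM), and Myh3, Myod1 and Myf5 were not higher in experiment 2. The epithelial and neural sums, between 72.5 and 137, went opposite ways in the experiments. Of 7 endothelial markers 5 had counts, with a sum of at most 7.24, and Tie1 and Cldn5 were at 0 in all 4 libraries. The part of other cell types in the results below was not tested, and fewer cells of a type and less RNA per cell cannot be told apart in bulk RNA.

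The levels of the 40 genes per length spanned 542-fold. Sparc, which encodes a collagen-binding matricellular protein, led at a mean of 3180 TPM over the 4 libraries, followed by Fn1 (fibronectin) at 2024 and Bgn (biglycan) at 1346, and these 3 held 43.1% of the summed TPM. Another 26 genes had between 100 and 1000 TPM, led by Lox at 876, Tnc at 776 and Fbln2 at 761. The 11 genes under 100 TPM included the fibril proteoglycans Lum at 88.1 and Dcn at 43.2, the laminin chain Lama5 at 35.0, and at the end of the order Matn2 at 18.7, Prelp at 10.4 and Mfap5 at 5.87. Of the 39 pairs of neighbours in this order, 10 had ranges over the 4 libraries that did not overlap, among them Sparc and Fn1, Fn1 and Bgn, and Bgn and Lox. The remaining neighbours, for example Lox and Tnc or Hspg2 and Nid1, did not differ beyond their spread.

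**Figure D1:**
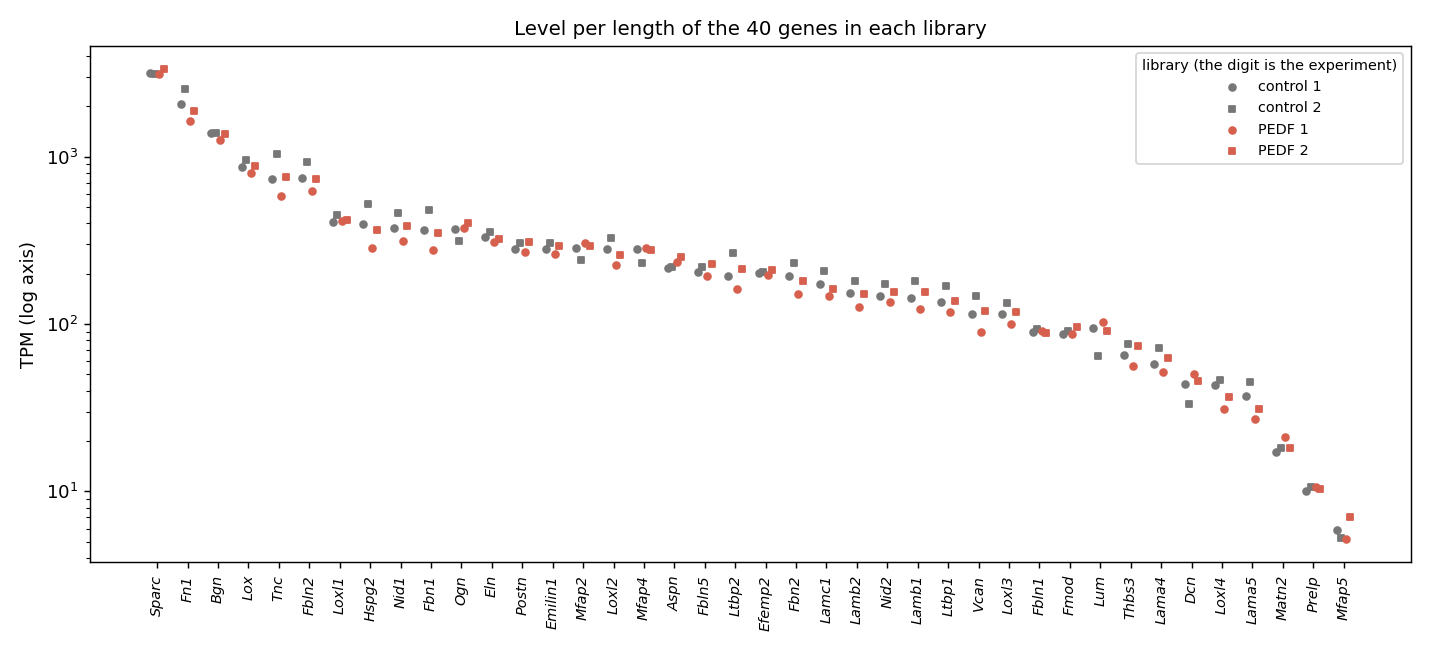
TPM of each of the 40 genes (log axis) in the 4 libraries, ordered by the mean, with circles for experiment 1, squares for experiment 2, grey for control and red for PEDF. Sparc, Fn1 and Bgn lie above 1000 TPM in every library, and Mfap5 is lowest at a mean of 5.87 TPM.

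Within an experiment, 24 of the 40 genes had a lower CPM (counts per 1000000) with PEDF in both experiments, 10 had a higher CPM in both, and 6 went opposite ways. Among all 19384 genes tested, 28.8% were lower in both experiments and 30.1% were higher in both. The median log2 ratio of PEDF to control over the 40 genes was -0.10 in experiment 1 and -0.13 in experiment 2. CPM ranges of the groups did not overlap for 13 genes that were lower with PEDF, against a background of 18.4% of all genes, and for 7 that were higher, against 18.9%.

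Treatment was first compared without regard to the experiment. edgeR's quasi-likelihood test called none of the 40 genes at an adjusted p under 0.05 (Benjamini-Hochberg over all genes tested), where it called 0.00516% of all genes. At an unadjusted p under 0.05 there were 16 of the 40 genes, 4 higher and 12 lower with PEDF, beside 6.88% of all genes, and the smallest adjusted p was 0.279, for Lama5. DESeq2 called 1 of the 40, Lama5 (adjusted p = 0.0226), where it called 0.0594% of the genes it gave an adjusted p, and limma on log2(TPM + 1) called none. The median log2 fold change of the 40 genes was -0.10, beside 0.00 over all genes tested. It came to -0.03 without control 2, and to -0.17 without control 1, when 16 of the 40 genes and 1.09% of all genes were called.

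Libraries of an experiment share their embryos, so a second fit took the experiment number as a block. In it edgeR called 24 of the 40 genes, against 3.75% of all genes. Of these, 18 were lower with PEDF (background 2.07%) and 6 were higher (background 1.67%). The background includes genes with as few as 10 counts in total, while each of the 40 had 491 or more, so the shares are not matched for depth. The 18 lower genes were Fn1, Tnc, Fbn1, Fbn2, Fbln2, Ltbp1, Ltbp2, Loxl2, Loxl3, Loxl4, Vcan, Hspg2, Lama4, Lama5, Lamb1, Lamb2, Lamc1 and Nid1, and their changes ran from -28.3% to -10.1%. The 6 higher genes were Dcn, Lum, Ogn, Aspn, Mfap2 and Mfap4, with rises of 12.5% to 27.1%. The block leaves 1 residual degree of freedom per gene, and edgeR then took the spread from a trend shared by all genes (19400 degrees of freedom in total, against a median of 15.6 without the block). A gene's own disagreement between the experiments therefore counts for little in these p-values. DESeq2 with the block gave an adjusted p to 29 of the 40 genes and called 14 of them, all lower with PEDF, beside 9.01% of the 1310 genes with an adjusted p in that fit. It gave none to Dcn, Lum, Mfap2, Loxl4 and Lama5, and it did not call Ogn, Aspn, Mfap4, Loxl3 or Lama4, whose adjusted p ran from 0.160 to 0.421.

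The 24 genes kept their direction whichever library was left out of the fit without the block, but most did not keep the size of their change. In that fit the log2 fold change moved by over 1.5 times for 19 genes without control 2, for 12 without control 1, for 10 without PEDF 1 and for 6 without PEDF 2. Without control 2 it came to -0.24 for Fn1, -0.14 for Tnc, -0.21 for Fbn1, -0.29 for Hspg2, -0.14 for Vcan and -0.13 for Fbln2. It came to -0.07 for Ltbp1, -0.06 for Ltbp2, Loxl3 and Lamb1, -0.02 for Lama4, -0.13 for Lamb2, -0.17 for Lamc1 and -0.09 for Nid1, and among the higher genes to 0.13 for Dcn, 0.04 for Lum, 0.07 for Ogn, 0.06 for Mfap2 and 0.02 for Mfap4. Without control 1 the values were larger, for example -0.60 for Tnc, 0.57 for Dcn and 0.64 for Lum. Without PEDF 1 that of Tnc was -0.24 and without PEDF 2 that of Vcan was -0.47. The 5 genes that no single library moved so far were Fbn2, Loxl2, Loxl4, Lama5 and Aspn.

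**Figure D2:**
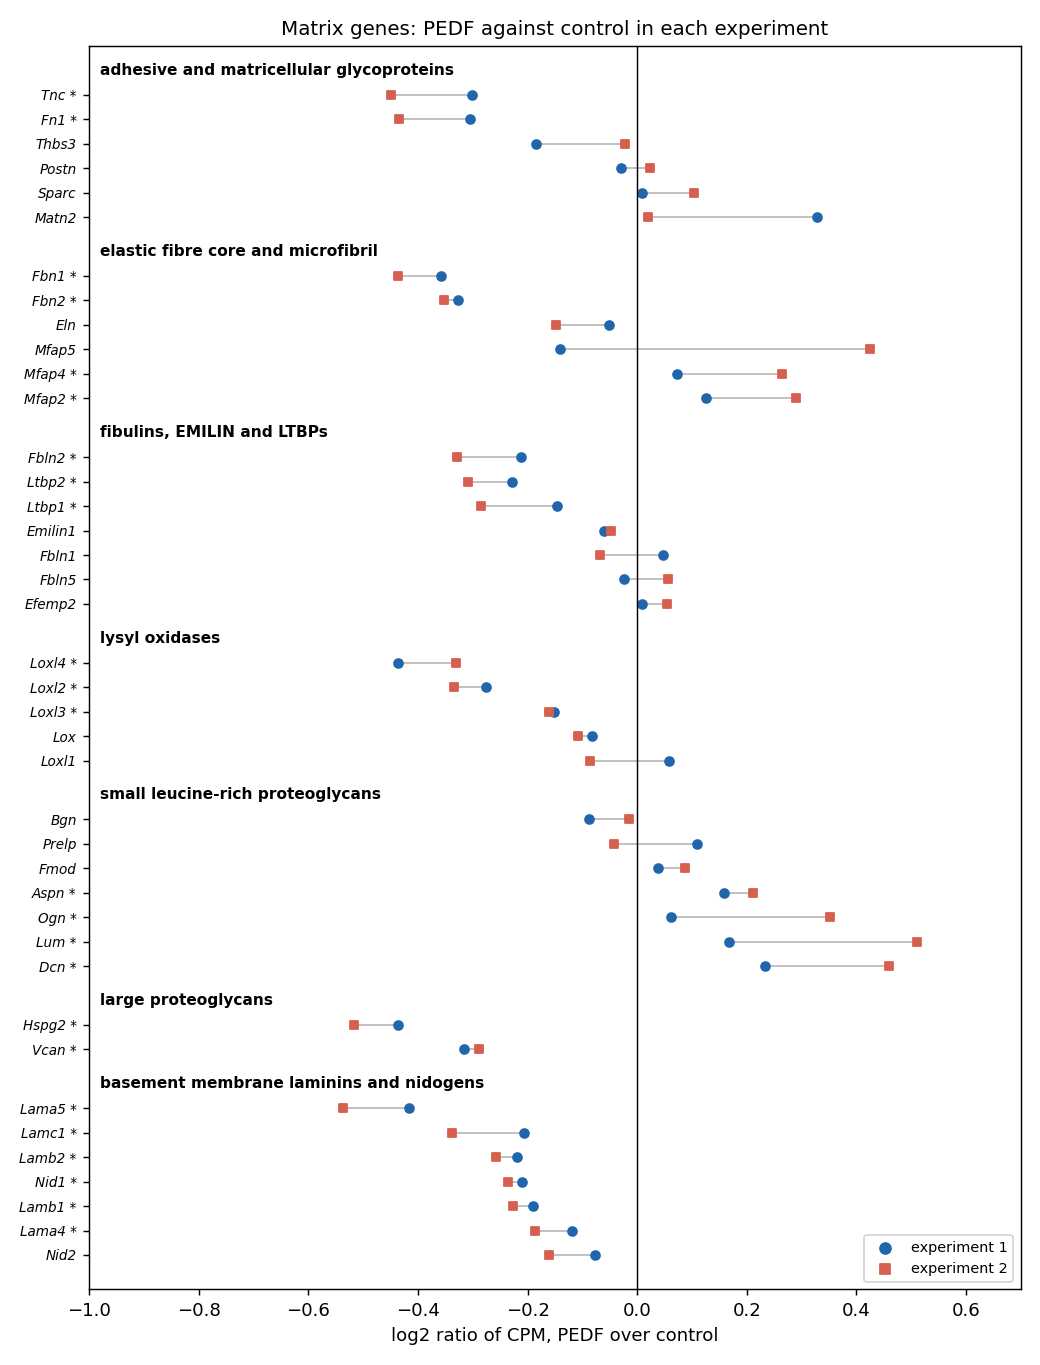
Log2 ratio of CPM, PEDF over control, for the 40 genes by role, in experiment 1 (circles) and experiment 2 (squares), with a star for genes at an adjusted p under 0.05 in edgeR with the experiment as a block. All 7 laminin and nidogen genes lie left of 0 in both experiments, and 5 of the 7 small leucine-rich proteoglycans lie right of it in both.

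The log2 ratio moved with gene length over all genes, so length was taken into account next. Over 10722 genes with a mean log2 CPM over 3, it changed by -0.041 per doubling of exon length in experiment 1 and by -0.057 in experiment 2. Over the 40 genes the slope was steeper, at -0.145 and -0.241. A trend of the opposite sign separated the experiments within a treatment: control 2 against control 1 gave 0.051 per doubling over all genes and 0.202 over the 40, and PEDF 2 against PEDF 1 gave 0.035 and 0.105. These slopes are descriptions across genes, which are not independent, and the cause of the trend was not tested.

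The genes called in the block divided by length. The 18 lower genes were 4213 to 14739 bases long, with a median of 9094.5, and the 6 higher genes were 1211 to 5838 bases long, with a median of 2401 (summed exon lengths). All 5 of the 40 genes under 3000 bases were higher with PEDF in both experiments, as were 52.8% of all genes of that length with a mean log2 CPM over 3. Of the 20 genes of 6000 bases or more, 17 were lower in both, beside 50.5% of all such genes, and 15 of them (75%) were called lower with the block, beside 7.77% of all such genes.

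After the trend with length was removed from each library, edgeR with the block called 19 of the 40 genes, against 2.19% of all genes. Of these, 16 were lower with PEDF (background 1.27%) and 3, Dcn, Lum and Ogn, were higher (background 0.923%). Every one of the 19 had also been called without the correction. The 5 that were lost were the laminin chains Lama4 and Lamb1 (adjusted p = 0.643 and 0.0513) and the short genes Mfap2 (0.351), Mfap4 (0.448) and Aspn (0.217). Of the genes of 6000 bases or more, 13 of 20 (65%) were still called lower, beside 2.99% of all genes of that length. The median log2 ratio of the 40 genes after subtraction of the trend was -0.07 in experiment 1 and -0.10 in experiment 2. A correction for both length and GC content, chosen after seeing the data, left 16 genes, 14 lower and 2 higher, and with it Ogn had an adjusted p of 0.361.

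**Figure D3:**
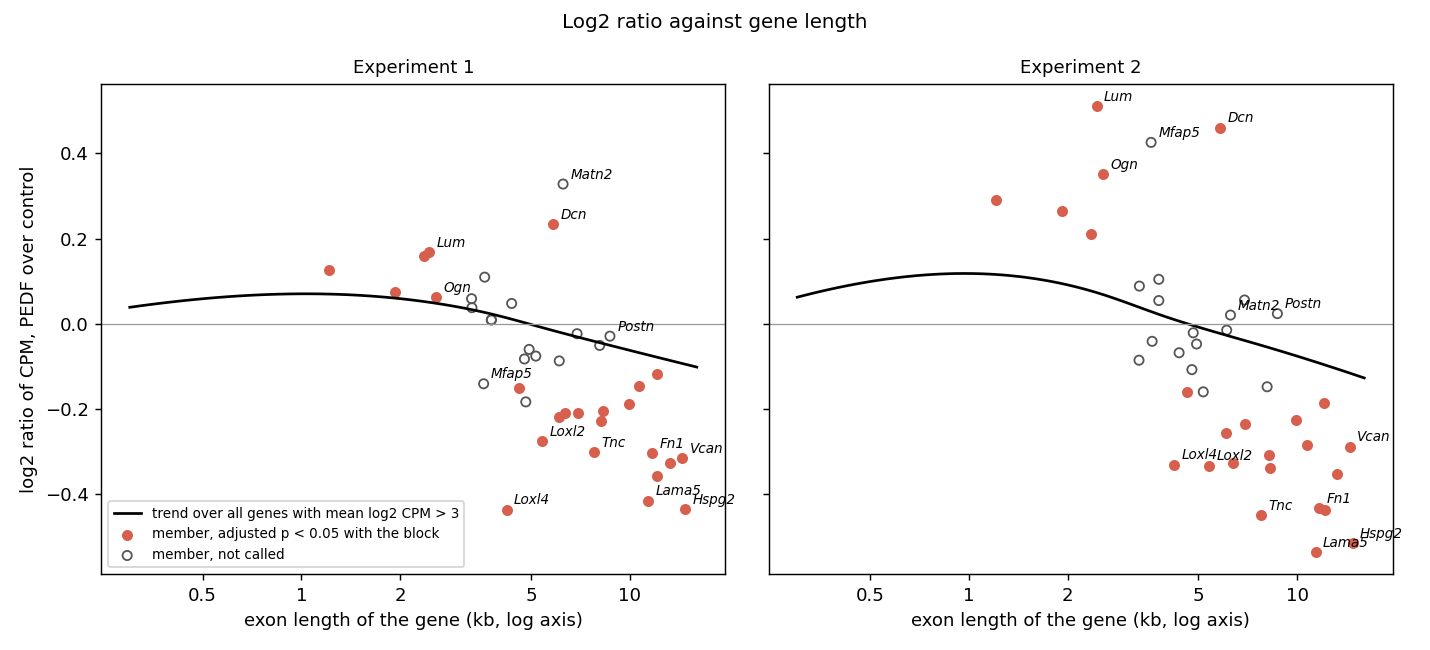
Log2 ratio of CPM, PEDF over control, against exon length (log axis) in each experiment, for the 40 genes (filled where the adjusted p is under 0.05 with the block), with the trend over all genes of mean log2 CPM over 3 as a line. Most filled points on the right lie below the line, down to -0.54 for Lama5 in experiment 2, and Dcn lies above it at 0.23 and 0.46.

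**Figure D4:**
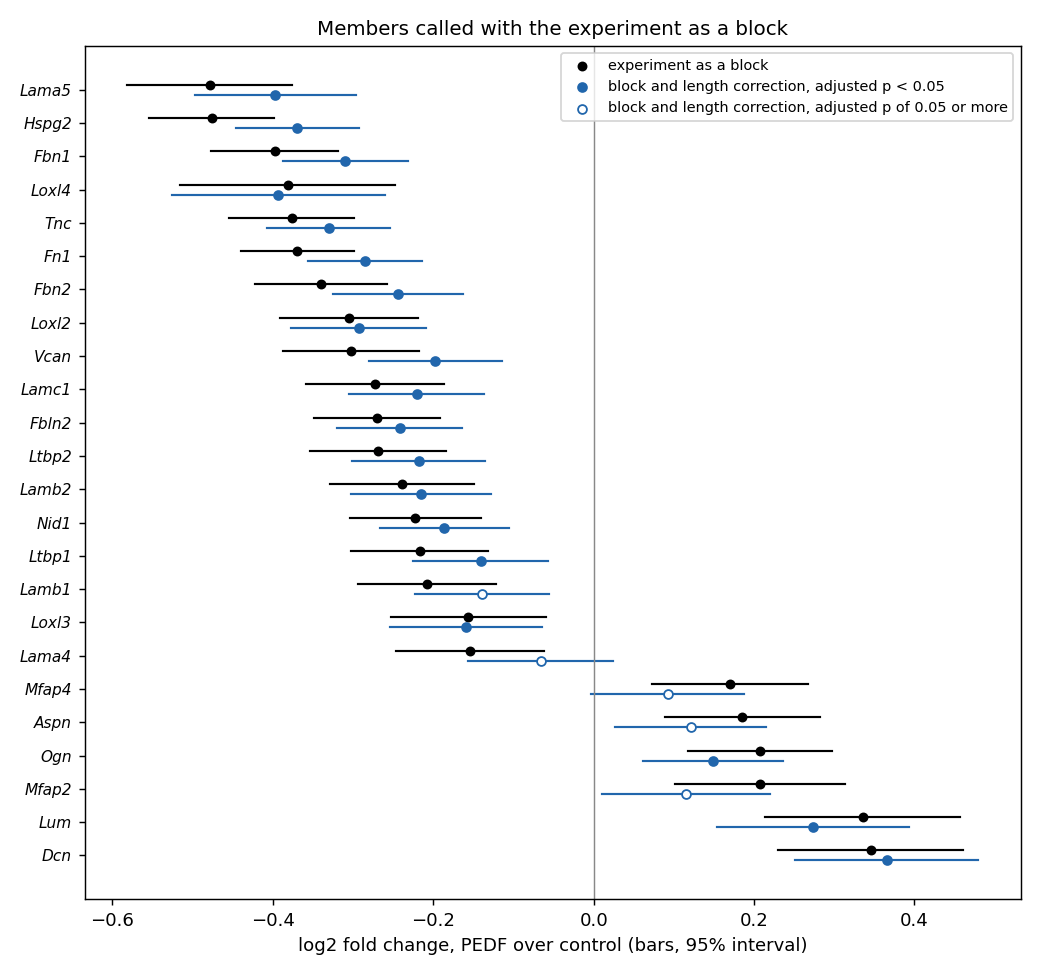
Log2 fold change, PEDF over control, with its 95% interval for the 24 genes called in edgeR with the block (black) and after the correction for length (blue, open where the adjusted p was 0.05 or more). The correction moved Hspg2 from -0.48 to -0.37 and Dcn from 0.35 to 0.37, and the 5 open points are Lamb1, Lama4, Mfap4, Aspn and Mfap2.

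Promoters are shown for genes at the ends of this order: the pair with the largest falls in the block (Lama5, Hspg2) and the pair with the largest rises (Ogn, Aspn) among called genes with 1 RefSeq entry. RefSeq (GRCm38.p6) gave promoter entries for 25 of the 40 genes, and the 250 bases before the start were searched on both strands for the GC box GGGCGG, which SP-family factors bind, and for TATAAA, the core of the TATA box. The stretches below run 5′ to 3′ on the gene's strand, with GC boxes in capitals on either strand (CCGCCC is the GC box of the other strand). That of Hspg2 stops where the GENCODE M21 exon begins.
Lama5, chr2:180225860-180226109, minus strand: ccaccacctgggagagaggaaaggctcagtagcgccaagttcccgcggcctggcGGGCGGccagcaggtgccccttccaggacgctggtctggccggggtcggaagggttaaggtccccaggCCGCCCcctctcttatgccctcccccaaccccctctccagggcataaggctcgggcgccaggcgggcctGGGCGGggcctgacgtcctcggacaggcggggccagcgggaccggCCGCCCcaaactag
Hspg2, chr4:137468553-137468768, plus strand: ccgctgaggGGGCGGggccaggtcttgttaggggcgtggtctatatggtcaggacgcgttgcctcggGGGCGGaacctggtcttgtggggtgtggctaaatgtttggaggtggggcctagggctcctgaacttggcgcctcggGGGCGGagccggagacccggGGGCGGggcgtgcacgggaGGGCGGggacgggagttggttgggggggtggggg
Aspn, chr13:49544193-49544442, plus strand: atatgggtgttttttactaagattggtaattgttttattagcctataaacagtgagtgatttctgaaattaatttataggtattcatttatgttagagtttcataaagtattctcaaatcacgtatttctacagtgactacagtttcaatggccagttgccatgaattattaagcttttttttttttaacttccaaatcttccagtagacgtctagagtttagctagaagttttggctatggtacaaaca
Ogn, chr13:49607765-49608014, plus strand: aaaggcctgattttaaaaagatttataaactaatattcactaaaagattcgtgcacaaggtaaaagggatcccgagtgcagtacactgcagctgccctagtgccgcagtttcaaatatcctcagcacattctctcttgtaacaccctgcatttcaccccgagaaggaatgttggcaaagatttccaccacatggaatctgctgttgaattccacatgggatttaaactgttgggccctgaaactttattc

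The Lama5 stretch held 4 GC boxes at 72.4% G and C, and that of Hspg2 held 5 at 70.8%. Those of Aspn (30% G and C) and Ogn (42%) held none. A GC box lay in 32.7% of all 32851 RefSeq promoters and in 16 of the 25 genes with an entry (19 of their 33 entries). It lay in 10 of the 12 genes called lower with the block that had an entry, in 1 of 3 called higher and in 5 of 10 that were not called. TATAAA lay in 12.4% of all promoters and in 1, 2 and 1 genes of these groups. Genes with several entries count once, with a match in any of them, whereas the shares of all promoters are per entry. A match describes these letters and not the binding of a factor.

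Among the adhesive and matricellular glycoproteins, Fn1 and Tnc were called lower and the other 4 genes were not called. Fn1, at chr1:71585520-71653200, encodes fibronectin, which integrins bind and assemble into fibrils. It had 8553 CPM in control 1, 6925 in PEDF 1, 10254 in control 2 and 7588 in PEDF 2. Both PEDF libraries lay below both control libraries, with log2 ratios of -0.30 and -0.43. Its log2 fold change was -0.37 ± 0.04 (SE) with the block (adjusted p = 3.05e-21) and -0.29 after the length correction (adjusted p = 2.51e-12), while without the block its adjusted p was 0.536.

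Tnc encodes tenascin C, a glycoprotein of developing and wounded tissue that modulates cell adhesion. Its CPM was 2024 in control 1, 1642 in PEDF 1, 2783 in control 2 and 2037 in PEDF 2. PEDF 2 exceeded control 1, so that the groups overlapped although each PEDF library was below the control of its experiment. The log2 fold change was -0.38 ± 0.04 with the block (adjusted p = 3.46e-18) and -0.33 after the correction (adjusted p = 3.68e-14), beside an adjusted p of 0.761 without the block.

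Sparc, the gene of highest level, had 4276 and 4302 CPM in control 1 and PEDF 1 and 4064 and 4368 in control 2 and PEDF 2. The libraries of each treatment lay close together, and the 95% interval of the log2 fold change with the block was -0.02 to 0.13 (adjusted p = 0.533). Postn, for the fasciclin-domain protein periostin, ranged from 850 to 929 CPM over the 4 libraries, with log2 ratios of -0.03 and 0.02. Matn2, for the adaptor protein matrilin 2, had 38.5, 48.3, 39.1 and 39.7 CPM in control 1, PEDF 1, control 2 and PEDF 2. Only PEDF 1 stood apart, with a log2 ratio of 0.33 against 0.02 in experiment 2, and the gene was not called with the block (adjusted p = 0.261). Thbs3, for a pentameric thrombospondin, had log2 ratios of -0.18 and -0.02 and an adjusted p of 0.412 with the block.

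In the elastic fibre, both fibrillins were called lower, the microfibril genes Mfap2 and Mfap4 were called higher with the block but not after the length correction, and Eln and Mfap5 were not called. Fbn1, for the main microfibril protein, had 1571 CPM in control 1, 1226 in PEDF 1, 2008 in control 2 and 1483 in PEDF 2. Its groups did not overlap, and its log2 fold change with the block was -0.40 ± 0.04 (adjusted p = 2.04e-19). Fbn2, for the fibrillin that is prominent in embryos, had 912, 727, 1055 and 827 CPM in the same order. Its ratios of -0.33 and -0.35 were the closest pair of these 6 genes, and its log2 fold change was -0.34 ± 0.04 with the block (adjusted p = 4.69e-13). After the length correction the fibrillins remained called, at -0.31 for Fbn1 and -0.24 for Fbn2. Gm9913, a gene on the other strand with 3010 counts in all, shares 20.1% of the exon bases of Fbn1, which had 104518 counts. The strand setting of the counting was not given in the sources used here.

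Eln, for elastin itself, had 946 and 913 CPM in control 1 and PEDF 1 and 997 and 900 in control 2 and PEDF 2. Both PEDF libraries were below both controls, but the log2 fold change of -0.10 with the block had an adjusted p of 0.189. Mfap2, whose product binds fibrillin, had 123 CPM in control 1, 134 in PEDF 1, 101 in control 2 and 123 in PEDF 2. Control 2 was the lowest of the 4 libraries, and control 1 and PEDF 2 were nearly equal. The log2 fold change with the block was 0.21 ± 0.05 (adjusted p = 0.00725), and 0.11 after the length correction (adjusted p = 0.351). For Mfap4, whose product associates with elastic fibres, control 2 was again lowest at 155 CPM, beside 190 in control 1, 200.5 in PEDF 1 and 186 in PEDF 2. Its log2 fold change was 0.17 ± 0.05 with the block (adjusted p = 0.0234) and 0.09 after the correction (adjusted p = 0.448). Mfap5, the gene of lowest level with 6.56 to 8.81 CPM, went opposite ways in the experiments (-0.14 and 0.43), and the interval of its log2 fold change, -0.18 to 0.50, was the widest of the microfibril genes.

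Of the 7 genes for fibulins, EMILIN1 and latent TGF-beta binding proteins, 3 were called lower with the block and after the length correction. Fbln2, for a fibulin of elastic fibres and basement membranes, had 1686 CPM in control 1, 1457 in PEDF 1, 2050 in control 2 and 1633 in PEDF 2, without overlap. Its log2 fold change was -0.27 ± 0.04 with the block (adjusted p = 7.01e-09) and -0.24 after the correction. Ltbp1, whose product ties latent TGF-beta to the matrix, had 511 and 461 CPM in experiment 1 and 622 and 510 in experiment 2. It had a log2 fold change of -0.22 ± 0.04 with the block (adjusted p = 9.55e-05) and kept an adjusted p of 0.0466 after the length correction, but had 0.0817 when GC content was added. Ltbp2, for a microfibril protein that binds fibrillin 1, had 565 and 482 CPM in experiment 1 and 746 and 603 in experiment 2. Both values of experiment 2 lay above PEDF 1 and control 1, so that the treatments overlapped, and the log2 fold change with the block was -0.27 ± 0.04 (adjusted p = 1.71e-07).

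The 4 other genes of this group had log2 ratios between -0.07 and 0.06 in both experiments. Fbln5 and Efemp2, whose products (fibulin 5 and fibulin 4) are needed to assemble elastic fibres, had 95% intervals of -0.07 to 0.10 and -0.06 to 0.12 with the block. Emilin1, for a glycoprotein between elastin and microfibrils, had -0.14 to 0.03, and Fbln1 had -0.11 to 0.09. Without the block they were wider, at -0.14 to 0.17 for Fbln5, -0.11 to 0.17 for Efemp2, -0.20 to 0.10 for Emilin1 and -0.16 to 0.14 for Fbln1. The intervals with the block rest on a spread shared by all genes and set no firm bound. Small changes could not be told from 0.

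The lysyl oxidases were lower with PEDF in both experiments for 4 of 5 genes, and Loxl2, Loxl3 and Loxl4 were called. Loxl2 had 537 CPM in control 1, 443 in PEDF 1, 609 in control 2 and 483 in PEDF 2, without overlap. Its log2 fold change of -0.31 ± 0.04 with the block (adjusted p = 1.48e-09) hardly moved with the length correction, to -0.29 (adjusted p = 5.33e-09). Loxl4 had 64.7 and 47.8 CPM in experiment 1 and 67.1 and 53.4 in experiment 2. The controls were close to each other and above both PEDF libraries, and the log2 fold change was -0.38 ± 0.07 with the block (adjusted p = 4.98e-06) and -0.39 after the correction. At 4213 bases Loxl4 was the shortest gene called lower. Loxl3 had 187 and 168 CPM in experiment 1 and 212 and 189 in experiment 2, so that the treatments overlapped. Its ratios of -0.15 and -0.16 were nearly equal, and its log2 fold change of -0.16 ± 0.05 passed narrowly with the block (adjusted p = 0.0435) and after the length correction (0.0472), but not with GC content added (0.0538) or in DESeq2 with the block (0.279). Its exons share 11.6% of their bases with Htra2 on the other strand, which had 6326 counts beside 12525 of Loxl3.

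Lox, for the enzyme of highest level in this family, had 1467 CPM in control 1, 1385 in PEDF 1, 1582 in control 2 and 1467 in PEDF 2. The ratios of -0.08 and -0.11 were alike, and the log2 fold change of -0.10 with the block had an adjusted p of 0.198. Loxl1, which has a role in elastin cross-linking, ranged from 474 to 509 CPM and had ratios of 0.06 and -0.09 (adjusted p = 0.935 with the block).

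Small leucine-rich proteoglycans were the only one of the 7 groups with more genes higher than lower in both experiments, 5 against 1. Dcn, for decorin, a collagen-binding proteoglycan that also binds TGF-beta, had 91.0 CPM in control 1, 107 in PEDF 1, 67.1 in control 2 and 92.3 in PEDF 2. PEDF libraries were above both controls, and control 2 was the lowest of all. The log2 fold change was 0.35 ± 0.06 with the block (adjusted p = 1.15e-06) and 0.37 after the length correction (adjusted p = 1.51e-07), since Dcn at 5838 bases was not a short gene. Without the block its adjusted p was 0.718.

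Lum, for lumican, which regulates fibril assembly, had 82.0 CPM in control 1, 92.1 in PEDF 1, 54.2 in control 2 and 77.3 in PEDF 2. Control 2 stood well below the other 3 libraries and the groups overlapped, with log2 ratios of 0.17 and 0.51. The log2 fold change was 0.34 ± 0.06 with the block (adjusted p = 1.13e-05), 0.27 after the length correction (adjusted p = 0.0011), and the adjusted p without the block was 0.844. Ogn, for osteoglycin, had 337 and 352 CPM in experiment 1 and 279 and 356 in experiment 2. Here too control 2 was lowest, and the ratio of 0.06 in experiment 1 shrank to 0.01 once the length trend was subtracted. Its log2 fold change was 0.21 ± 0.05 with the block (adjusted p = 5.34e-04) and 0.15 after the length correction (adjusted p = 0.0416).

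Aspn, for asporin, had 181 and 177 CPM in the controls and 202 and 205 in the PEDF libraries. The spread within each treatment was small beside the difference, and the log2 fold change was 0.19 ± 0.05 with the block (adjusted p = 0.00883). After the length correction it was 0.12 (adjusted p = 0.217). Bgn, the most abundant proteoglycan, had 2806 to 2981 CPM, and its interval with the block was -0.13 to 0.02 (adjusted p = 0.609). Fmod, for fibromodulin, had an interval of -0.05 to 0.17, and Prelp, at 12.9 to 13.96 CPM, went opposite ways in the experiments.

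**Figure D5:**
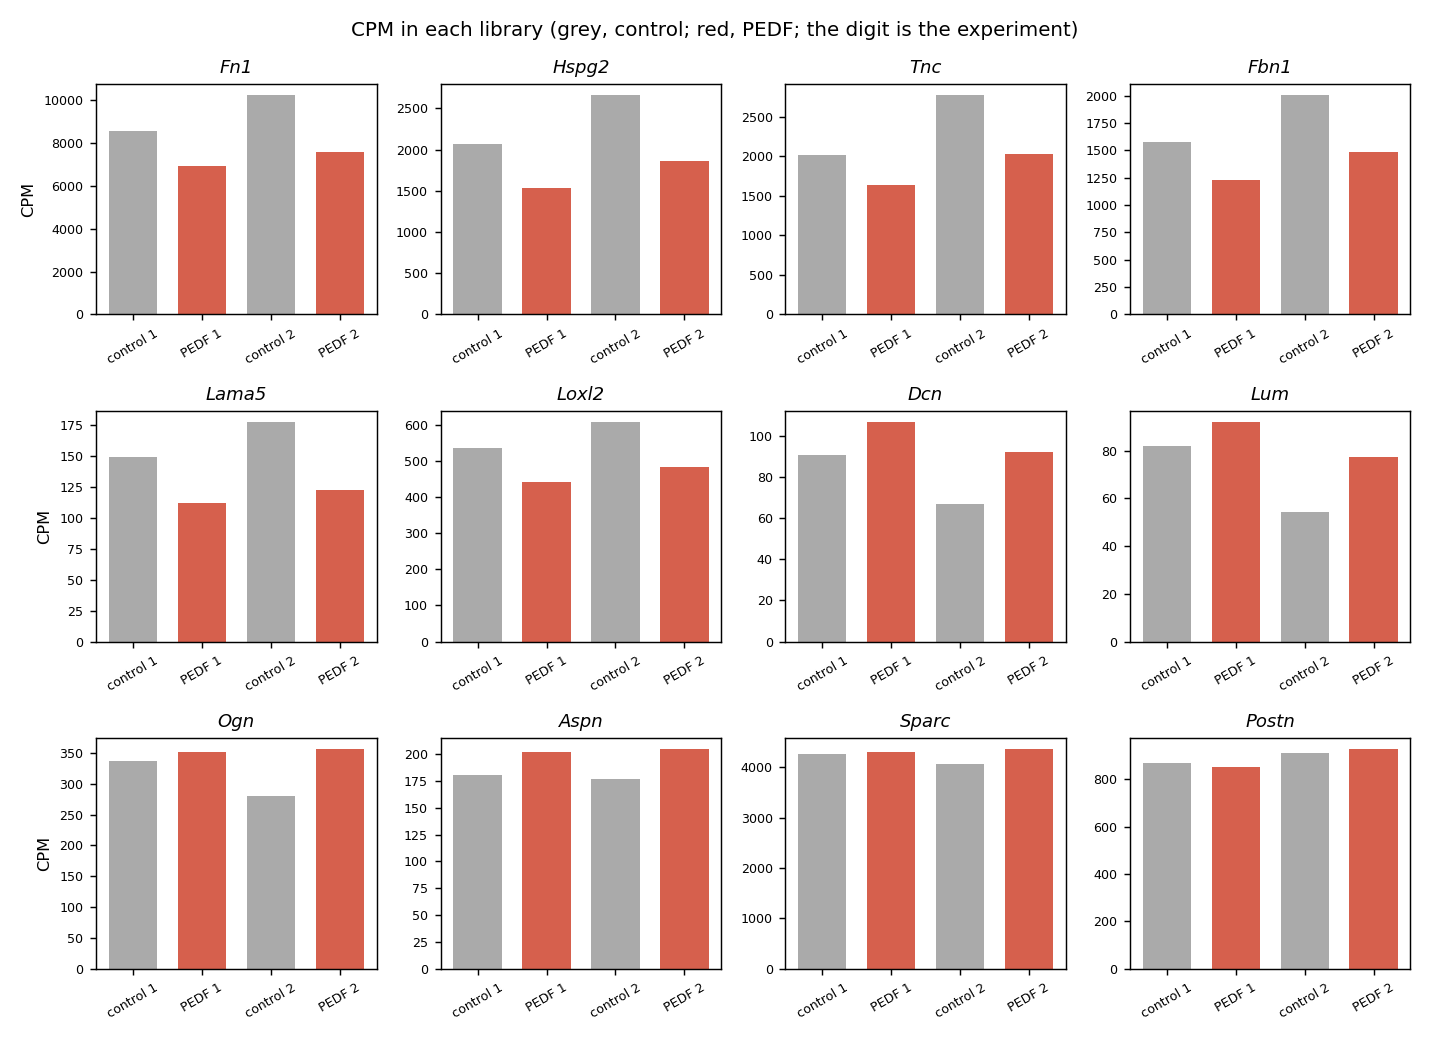
CPM of 12 of the genes in each library, with grey bars for control and red bars for PEDF, in pairs by experiment. Fn1, Hspg2, Tnc, Fbn1, Lama5 and Loxl2 are lower and Dcn, Lum, Ogn and Aspn higher with PEDF in both pairs, while Sparc and Postn stay within 4064 to 4368 and 850 to 929 CPM.

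Both large proteoglycans were called lower. Hspg2, for the heparan sulfate proteoglycan perlecan, had 2074 CPM in control 1, 1533 in PEDF 1, 2668 in control 2 and 1865 in PEDF 2. No PEDF library reached a control. The log2 fold change was -0.48 ± 0.04 with the block (adjusted p = 2e-29), the smallest adjusted p of the 40 genes, and -0.37 after the correction (adjusted p = 9.25e-18). Vcan, for the hyaluronan-binding proteoglycan versican, had 592, 476, 730 and 598 CPM in control 1, PEDF 1, control 2 and PEDF 2. PEDF 2 was just above control 1, and the log2 fold change was -0.30 ± 0.04 with the block (adjusted p = 1.40e-09) and -0.20 after the correction (adjusted p = 5.58e-04). With 14739 and 14462 bases these were the longest of the 40 genes.

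In the basement membrane group all 7 laminin and nidogen genes were lower with PEDF in both experiments, and 6 were called with the block. Lama5, for the alpha 5 chain, had 149 CPM in control 1, 112 in PEDF 1, 178 in control 2 and 123 in PEDF 2. PEDF 2 was well below control 1. The log2 fold change was -0.48 ± 0.05 with the block (adjusted p = 9.02e-17) and -0.40 after the length correction (adjusted p = 1.13e-11). These were the largest falls of the 40 genes, but Hspg2 with the block (-0.48) and Loxl4 after the correction (-0.39) lay within the SE. With GC content added Loxl4 fell further, at -0.37 beside -0.35 for Lama5. Lamc1, for the gamma 1 chain that most laminins share, had 512, 444, 591 and 467 CPM in control 1, PEDF 1, control 2 and PEDF 2. Lamb2, for the beta 2 chain, had 328, 282, 381 and 318. Neither overlapped between the treatments. The log2 fold changes with the block were -0.27 ± 0.04 for Lamc1 (adjusted p = 1.71e-07) and -0.24 ± 0.05 for Lamb2 (adjusted p = 2.79e-05), and both stayed called after the correction (adjusted p = 6.32e-05 and 2.73e-04).

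Nid1, for nidogen 1, which links laminin to collagen IV, had 919 and 795 CPM in experiment 1 and 1098 and 933 in experiment 2. Its log2 ratios of -0.21 and -0.24 were alike, although PEDF 2 exceeded control 1. With the block its log2 fold change was -0.22 ± 0.04 (adjusted p = 1.94e-05), and it stayed called after the correction (adjusted p = 8.63e-04). Lamb1, for the beta 1 chain, had 507 and 444 CPM in experiment 1 and 622 and 532 in experiment 2. Its log2 fold change was -0.21 ± 0.04 with the block (adjusted p = 2.23e-04), and its adjusted p of 0.0513 after the correction was just past the threshold. Lama4, for the alpha 4 chain, had 247 and 227 CPM in experiment 1 and 298 and 262 in experiment 2. It changed by -0.15 ± 0.05 on the log2 scale with the block (adjusted p = 0.0339) and -0.07 after the correction. For both chains PEDF 2 exceeded control 1. Nid2 had ratios of -0.08 and -0.16 and was not called (adjusted p = 0.142).

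The experiments were compared as well, to show how far the 40 genes vary between MEF preparations. Without a treatment term edgeR called none of the 40 between experiments, where 0.0567% of all genes were called. At an unadjusted p under 0.05 there were 14 of the 40, beside 1486 of all 19384 genes tested. DESeq2 also called none. With the treatment as a second term edgeR called 23 of the 40, against 4.49% of all genes, and 19 of these were higher and 4 lower in experiment 2. Tnc (log2 difference 0.39), Ltbp2 (0.36), Hspg2 (0.32), Vcan (0.32) and Fbn1 (0.31) were furthest above, and Lum (-0.42), Dcn (-0.32), Mfap2 (-0.21) and Mfap4 (-0.20) were the 4 below. The log2 fold changes with PEDF in the block were -0.38 for Tnc and 0.34 for Lum, and both comparisons rest on the same 4 libraries.

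Of 76 symbols on a list of other matrix genes (glycoproteins, elastic fibre genes, proteoglycans and laminins), 71 were found in the data and 70 could be tested. None was called without the block by edgeR, DESeq2 or limma. In edgeR 5 of the 70 had an unadjusted p under 0.05, beside 6.88% of all genes, and the median log2 fold change of the 70 was -0.03. With the block 10 were called, 7 lower and 3 higher, beside 3.75% of all genes (2.07% lower and 1.67% higher). After the length correction 9 were called, 7 lower and 2 higher, beside 2.19% of all genes (1.27% lower and 0.923% higher). The correction lost Mgp and Lama2 (adjusted p = 0.289 and 0.439) and gained Ecm1, which was lower (adjusted p = 0.0483 against 0.271 before) and is named after its values were seen. Thbs1, for thrombospondin 1, had 4906 and 3920 CPM in experiment 1 and 6206 and 5134 in experiment 2 (log2 fold change -0.30, adjusted p = 6.97e-13 with the block). Acan, for the cartilage proteoglycan aggrecan, was lower by 0.24 and 0.57 in the log2 ratios of the experiments (adjusted p = 2.20e-13). Thbs2, Svep1, Agrn, Lama2 and Ccn2 were the others lower, with log2 fold changes of -0.17 to -0.38, and Ccn2, for a matricellular growth factor binding protein, was lower almost wholly in experiment 1, with ratios of -0.33 and -0.02. The 3 higher were Omd, for osteomodulin, a further small leucine-rich proteoglycan (log2 fold change 0.58, adjusted p = 4.66e-04), Egfl6 (0.67) and Mgp (0.20). Serpinf1, the gene of PEDF itself, had 454, 439, 445 and 475 CPM in control 1, PEDF 1, control 2 and PEDF 2 and was not called (adjusted p = 0.882 with the block).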

How the data were processed

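The authors purified polyadenylated RNA, made directional paired-end libraries, and deposited whole-number counts per gene and TPM. The submitters' processing notes list FastQC 0.11.7, Trimmomatic 0.38, HISAT2 2.1.0, SAMtools 1.9, featureCounts 1.6.3 and build mm10. Coordinates of the 40 genes equal those of GENCODE M21 (GRCm38), and the exon length was recovered from the deposited counts and TPM. The 40 genes and the lists were chosen with earlier results of these data known.

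Genes with 10 counts or more in total (19384) were fitted in R 4.3.3 with edgeR 4.0.16 (TMM factors, robust quasi-likelihood test, Benjamini-Hochberg adjustment over all genes). The SE was derived from the F statistic. The main fit held no covariate, since the study's methods, which name DESeq2, state none. Per the labels, the embryos differed between experiments, and the difference between experiments in control and in PEDF libraries correlated across 10720 genes (r = 0.423), so the block is printed beside it. The length correction used natural splines (5 degrees of freedom) of each library's log2 deviation on log2 length as offsets, fitted on genes with mean log2 CPM over 3. Alternatives were DESeq2 1.42.0, limma 3.58.1 on log2(TPM + 1), RLE factors, other filters and each library left out. The scripts were tested on simulated data. All 40 genes are named. Values per library and statistics are given for those with an adjusted p under 0.05 in any of the 3 edgeR fits or among the 10 highest in TPM (for Loxl1 and Bgn as ranges), and of other matrix genes those called with the block are named. Nothing beyond the experiment number marks a replicate, so p-values without the block measure the spread between these libraries. With the block edgeR took the spread from a trend shared by all genes, so its p-values say little about a gene's own spread.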

Additional observations from a re-analysis of the deposited data

How the results depend on the processing

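The first value in each series below is from edgeR without the block. The number of the 40 genes called was 0, and came to 24 with the replicate block, 19 with block and length correction, 16 with block, length and GC correction, 1 with DESeq2, 14 with DESeq2 and the block, 11 with no filter on low counts, and 0 to 16 with 1 library left out (16 without control 1, 2 without PEDF 2, 0 without control 2 or PEDF 1). In the same settings the count over all genes was 1, then 726, 425, 405, 5, 118, 106, and 2 to 205, with 0 after filterByExpr and by limma. For the other matrix genes it was 0, then 10, 9, 8, 0, 4, 4, and 0 to 6. The median log2 fold change of the 40 genes was -0.098, and it was -0.081 with block and length correction, -0.067 with GC added, -0.124 by limma, and -0.165 to -0.029 with 1 library left out (nearest 0 without control 2). Between experiments 0 of the 40 genes were called, 23 with the treatment term, 5 with no filter, and 0 to 21 with 1 library left out. The cause of these shifts was not tested. Some genes near 0 changed sign. With 1 library left out the log2 fold change ran from -0.066 to 0.059 for Postn, -0.275 to 0.063 for Thbs3, -0.041 to 0.327 for Mfap5, -0.063 to 0.042 for Fbln1, -0.059 to 0.090 for Fbln5, -0.066 to 0.037 for Loxl1 and -0.024 to 0.090 for Prelp. Postn was also above 0 with block and length correction (0.054) and with GC added (0.008), and Fbln5 was at -0.008 by limma. None of these 7 genes was called in a setting where its sign changed. Leaving out a library under the block was not possible, since no residual degree of freedom remains. At 14722848 to 18144640 counts each of the 40 genes had 491 counts or more in total, and with 2 libraries per treatment the replicate spread limits the precision.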
